A study of Mus musculus with 4 samples.

Results

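The 10 genes described here encode surface and endosomal proteins that are widely used to mark macrophages and monocytes: Mrc1, Cd68, Fcgr1, Cd14, Itgam, Itgax, Csf1r, Cx3cr1, Adgre1 and Ms4a7. They were picked by gene name, with earlier results of these arrays known, out of 21904 genes in the array table. Each of them was measured by 1 transcript cluster of 10 probes among the 22206 clusters of the table. Macrophages settle in every tissue, where they engulf dying cells and microbes, and monocytes are the blood cells that can enter a tissue and become macrophages there. The proteins compared here let these cells recognise sugars, antibodies and bacterial lipopolysaccharide, hold on to vessel walls and matrix, and receive the growth factors that keep them alive. No single one of them is specific, since dendritic cells, neutrophils or natural killer cells carry several of them.

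RNA came from the salivary glands (parotid, submandibular and sublingual in 1 sample) of 4 mice aged 20 weeks. The mutant mice, M47 and M49, were Nfkbiz-/-, which lack IκB-ζ, an inducible nuclear regulator of NF-κB target genes. The other mice, M30 and M55, were Nfkbiz+/+. All were noncohoused, that is, housed from weaning only with mice that shared their genotype, and the study used only females. Differences between genotypes and differences between cages therefore cannot be told apart in these 4 arrays. Sex and strain stand in the label of M47 alone, which gives the strain as ICR, whereas the methods describe a different, mixed background. One array was hybridised per mouse, from a piece of gland that was divided between histology and RNA. The study compared the genotypes to ask whether the glands differ in antimicrobial peptides and proteins, and the markers below are other genes of the same arrays.

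The 4 arrays had medians of 4.83 to 4.89 and lower quartiles of 3.44 to 3.53 on the log2 scale, and pairs of arrays correlated across clusters with Pearson's r of 0.969 to 0.981. Nfkbiz itself had a log2 signal of 6.18 in M47 and 5.78 in M49, against 5.04 in M30 and 7.29 in M55, so its cluster does not separate the genotypes. Where in the gene its probes lie is not known here. Genes of salivary epithelium were bright in all mice, with a mean log2 signal over 11 genes of 10.3 and 10.2 in M47 and M49, against 10.2 and 9.75 in M30 and M55. M55 stood apart in fat and muscle genes, since 7 fat cell genes averaged 3.69 and 4.03 in M47 and M49, against 4.21 and 6.07 in M30 and M55, and 7 skeletal muscle genes averaged 3.57 and 3.54, against 3.64 and 5.34. The 5 red cell genes averaged 5.42 and 6.82 in M47 and M49, against 9.25 and 8.68 in M30 and M55. What these differences in the pieces of gland contribute to the marker values was not tested.

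Of the 10 markers, 3 were called higher in Nfkbiz-/- glands and none was called lower. These were Mrc1 (1.76-fold), Cd68 (2.19-fold) and Itgam (1.72-fold). A gene was called where limma, which shares the estimate of spread over all clusters, gave an unadjusted p under 0.05 together with a change of 1.5-fold or more. By this rule 2.93% of all clusters were called higher and 3.69% lower. No marker passed a Benjamini-Hochberg adjustment at 0.05 over all clusters. The lowest adjusted p of a marker was 0.468, the unadjusted p was under 0.05 for 3 markers, and the methods' t-test called 1 of them with equal and 0 with unequal variances. Of the 10 log2 fold changes, 9 were above 0, compared with 46.9% of all clusters, and 7 markers had both Nfkbiz-/- mice above both Nfkbiz+/+ mice, compared with 18.2% of all clusters. The median log2 fold change of the 10 markers was 0.46, and that of all clusters was −0.02. In whole gland, more cells of a type and more RNA per cell cannot be told apart. With 2 mice per genotype an exact two-sided permutation test cannot go below 0.333. The limma p-values measure only the spread between these mice, most of it shared over all clusters (5.53 prior against 2 residual degrees of freedom). Cd68 and Itgam were called only with this shared spread, and not where each gene's own spread was used alone.

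**Figure D1:**
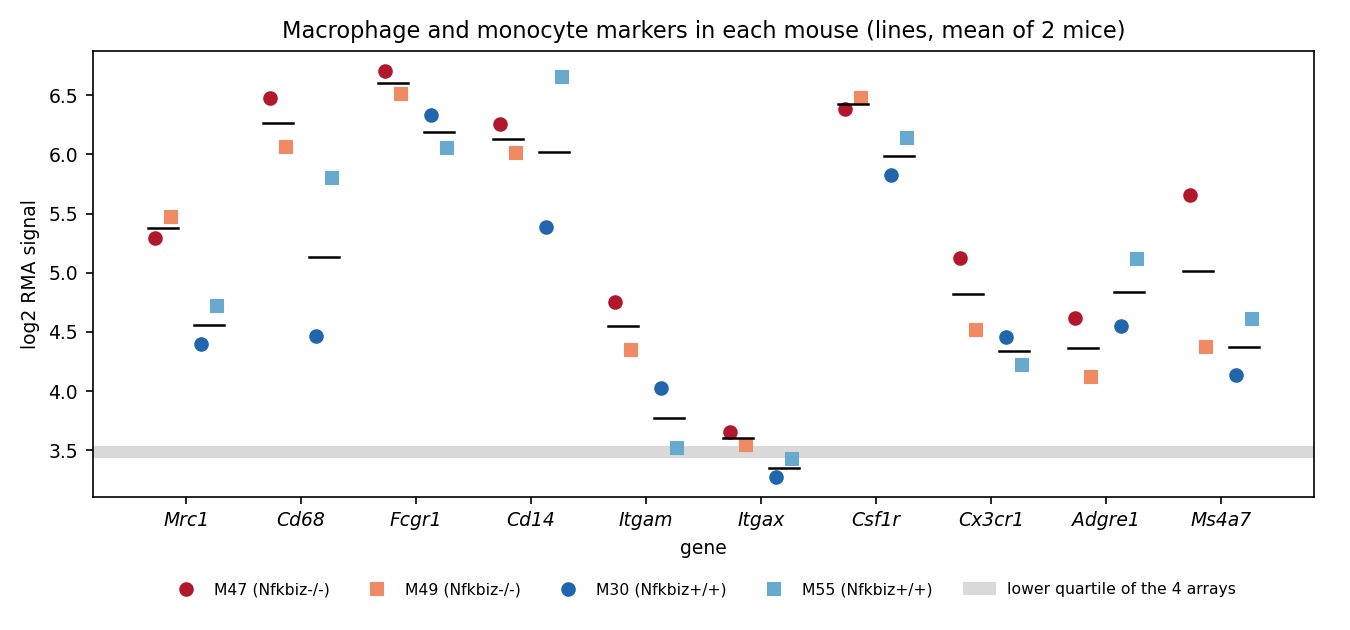
Log2 RMA signal (vertical axis) of the 10 markers (horizontal axis), with 1 point per mouse, Nfkbiz-/- left of Nfkbiz+/+, and a line at the mean of each genotype. The grey band marks the lower quartiles of the 4 arrays. In 7 genes both red points lie above both blue points, and the Nfkbiz+/+ points of Cd68 and Cd14 lie more than 1 log2 unit apart.

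The stretches before the start of the 3 called genes are shown because the comparison turns on these genes, and they are read for motifs of transcription factors of macrophages, first among them PU.1, without which macrophages do not form. Each runs from 120 bases before the start to the base before it, 5′ to 3′ on the gene's own strand, from RefSeq in GRCm38.p6. Capitals mark GAGGAA or its reverse complement TTCCTC, a core sequence of PU.1 sites, and in Cd68 the C/EBP motif TTGCNNAA and the AP-1 motif TGANTCA.
Mrc1, chr2:14229294-14229413, plus strand: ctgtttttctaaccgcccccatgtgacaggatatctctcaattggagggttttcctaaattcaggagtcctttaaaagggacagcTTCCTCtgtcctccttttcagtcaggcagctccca
Itgam, chr7:128062520-128062639, plus strand: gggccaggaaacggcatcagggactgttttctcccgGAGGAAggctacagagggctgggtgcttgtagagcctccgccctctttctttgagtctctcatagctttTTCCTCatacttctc
Cd68, chr11:69666171-69666290, minus strand: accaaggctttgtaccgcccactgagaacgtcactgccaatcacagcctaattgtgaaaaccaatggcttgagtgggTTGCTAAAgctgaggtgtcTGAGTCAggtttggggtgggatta
Mrc1 held TTCCTC at 35 to 30 bases before its start, and again at 167 to 162 and at 180 to 175 bases. Itgam held GAGGAA at 84 to 79 bases and TTCCTC at 15 to 10 bases before the start. Cd68 held the C/EBP motif at 43 to 36 bases and an AP-1 motif at 24 to 18 bases before the start. Farther out, it held another AP-1 motif at 149 to 143 bases and its only GAGGAA at 225 to 220 bases.

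In all, 7 of the 10 markers were matched in the promoter table, with 8 windows, and Csf1r, Cd14 and Adgre1 were not matched. In the 250 bases before the start, on both strands, GAGGAA was found in 4 of the 7 (Mrc1, Itgam, Cd68 and Fcgr1) and in 23.3% of all 32851 windows. The longer form GAGGAAGT, which contains it, was found in none of the 7 and in 2.44% of all windows. TGANTCA was found in 3 of the 7 (Cd68, Itgax and Ms4a7) and in 6.75% of windows, TTGCNNAA in 1 (Cd68) and in 9.56%, and the interferon-response motif GAAANNGAA in 1 (Ms4a7) and in 7.13%. These are counts of genes beside shares of windows. Counted by the markers' 8 windows, GAGGAA was found in 4, TGANTCA in 3, TTGCNNAA in 1 and GAAANNGAA in 2, both of Ms4a7. A match of letters is a description and does not show that a factor binds there.

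Mrc1 encodes the mannose receptor CD206, an endocytic receptor for mannose-bearing glycoproteins that is typical of resident tissue macrophages, and its cluster lies at chr2:14229414-14332057. Its log2 signal was 5.29 in M47 and 5.47 in M49, against 4.40 in M30 and 4.72 in M55. Both Nfkbiz-/- mice stood well above both Nfkbiz+/+ mice, and mice of 1 genotype lay within 0.32 of each other. The means were 5.38 ± 0.13 in Nfkbiz-/- mice and 4.56 ± 0.23 in Nfkbiz+/+ mice (SD, n = 2 each). This made a log2 fold change of 0.82 (SE 0.22, 95% interval 0.30 to 1.33, adjusted p = 0.468). Mrc1 was the only marker that was called without each of the 4 mice in turn, with log2 fold changes of 0.66 to 0.98. Without M49 (0.73), Mrc1 stayed called only by a small margin. It was also the marker that the methods' t-test called with equal variances, though not with unequal variances.

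Cd68 encodes macrosialin, a glycoprotein of late endosomes and lysosomes that is abundant in phagocytes, and lies at chr11:69664213-69666153. The signal of Cd68 on the log2 scale was 6.47 in M47 and 6.06 in M49, against 4.47 in M30 and 5.80 in M55. The genotypes did not overlap, but M55 lay close to M49 and the Nfkbiz+/+ mice were 1.33 apart, farther than the genotypes' means. These were 6.27 ± 0.29 in Nfkbiz-/- mice and 5.13 ± 0.94 in Nfkbiz+/+ mice (SD, n = 2 each). The log2 fold change of 1.13 (SE 0.41, 95% interval 0.17 to 2.09, adjusted p = 0.503) rested on M30: it was 0.47 without that mouse and 1.80 without M55. Without M47 it was 0.93 and no longer called.

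Fcgr1 encodes FcγRI, the high-affinity receptor for IgG on macrophages and monocytes (chr3:96282909-96293969). Fcgr1 had a log2 signal of 6.70 in M47 and 6.51 in M49, against 6.33 in M30 and 6.05 in M55. The mutant mice were higher without overlap, by a small step. With a log2 fold change of 0.42 (SE 0.22, 95% interval −0.09 to 0.92, adjusted p = 0.621), Fcgr1 was not called, with all 4 mice or without any 1 of them. Its signalling partner Fcer1g, the common γ-chain of activating Fc receptors, had 5.27 in M47 and 4.47 in M49, against 3.44 in M30 and 5.07 in M55. The genotypes overlapped in Fcer1g (log2 fold change 0.62, adjusted p = 0.77), which was 1.43 and called without M55. The other IgG receptors were not called either, with log2 fold changes of −0.10 for the inhibitory Fcgr2b, 0.01 for Fcgr3 and 0.29 for Fcgr4.

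Cd14 encodes the co-receptor that hands lipopolysaccharide to TLR4 and MD-2 (chr18:36725067-36726736). Cd14 had a log2 signal of 6.26 in M47 and 6.01 in M49, against 5.38 in M30 and 6.65 in M55. M55 was the highest of the 4 mice and M30 the lowest, so that both Nfkbiz-/- mice lay between the Nfkbiz+/+ mice. Cd14 thus had a log2 fold change of 0.12 (SE 0.39, 95% interval −0.79 to 1.02, adjusted p = 0.96). Its sign was set by single mice, with −0.52 without M30, −0.01 without M47 and 0.75, called, without M55. The genes that act with it were not called. Tlr4 had a log2 fold change of 0.11, Ly96, which encodes MD-2, −0.08, and Lbp, the lipopolysaccharide-binding protein of serum, −0.22. Lbp was 0.61 and called higher without M30, and −1.06 and called lower without M55.

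Itgam and Itgax are neighbouring genes for the α-chains CD11b and CD11c of β2 integrins, adhesion receptors that also bind complement-coated particles. Their clusters, at chr7:128062640-128128160 and chr7:128129547-128150657, are 1386 bases apart. Itgam, which neutrophils and natural killer cells share with macrophages, had a log2 signal of 4.75 in M47 and 4.35 in M49, against 4.03 in M30 and 3.52 in M55. Every Nfkbiz-/- value exceeded every Nfkbiz+/+ value, and M55 came close to the lower quartile of its array. Itgam had a log2 fold change of 0.78 (SE 0.26, 95% interval 0.17 to 1.39, adjusted p = 0.478), from means of 4.55 ± 0.29 in Nfkbiz-/- mice and 3.77 ± 0.36 in Nfkbiz+/+ mice (SD, n = 2 each). It fell short of the criteria without M47 (0.58) and without M55 (0.53).

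Itgax, which is best known from dendritic cells but is also carried by some macrophages, had a log2 signal of 3.65 in M47 and 3.55 in M49, against 3.28 in M30 and 3.43 in M55. The genotypes did not overlap, but both Nfkbiz+/+ values were below the lower quartile of their arrays. That gave Itgax a log2 fold change of 0.25 (SE 0.20, 95% interval −0.23 to 0.72, adjusted p = 0.771). The shared β-chain of these integrins, Itgb2 (CD18), was called higher, with 4.84 in M47 and 4.08 in M49, against 3.65 in M30 and 3.71 in M55. Itgb2 had a log2 fold change of 0.78 (SE 0.28, adjusted p = 0.502) that stayed called when M49 was left out, but was lost without M47 (0.40), without M30 (0.76) and without M55 (0.81). The other α-chains were not called, with 0.37 for Itgal and 0.27 for Itgad, nor was Icam1, a ligand of these integrins, with −0.02.

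**Figure D2:**
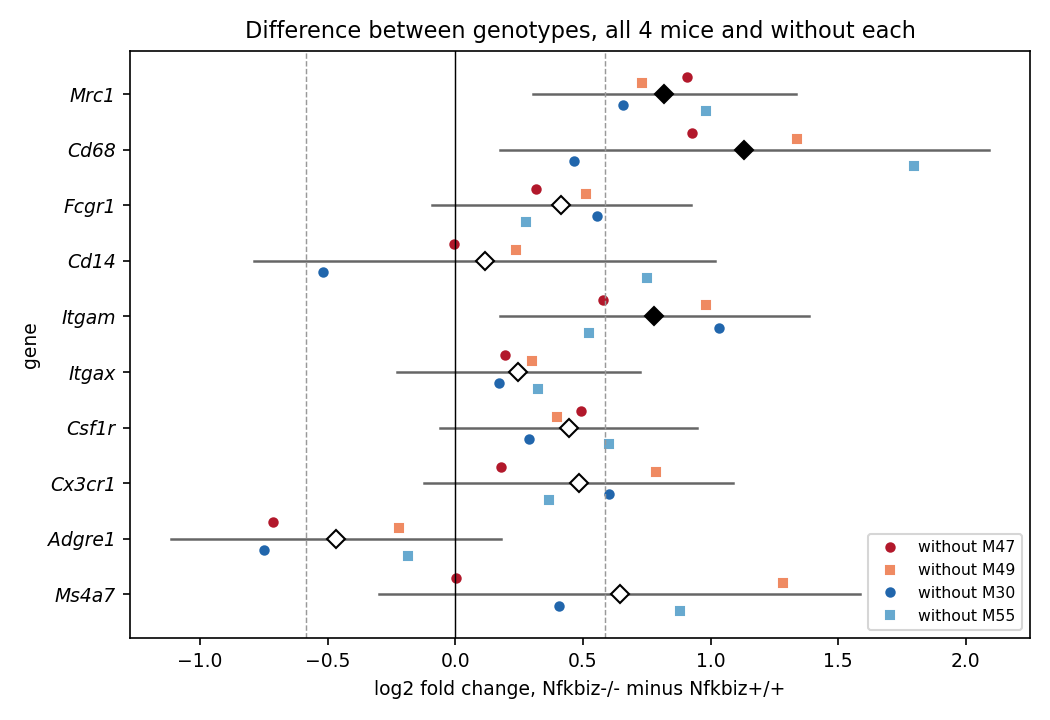
Log2 fold change, Nfkbiz-/- minus Nfkbiz+/+ (horizontal axis), of the 10 markers (vertical axis). Diamonds with bars are the estimates with their 95% intervals from limma, filled where called, small points are the estimates without 1 mouse, and dashed lines mark 1.5-fold. The 3 filled diamonds are Mrc1, Cd68 and Itgam, and the points of Cd14, Cd68 and Ms4a7 spread most.

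Csf1r encodes the receptor for CSF1 and IL-34, the growth factors on which monocytes and most tissue macrophages depend (chr18:61105572-61132149). Its cluster overlaps 4 RefSeq genes, of which 2 are protein-coding. The arrays gave Csf1r a log2 signal of 6.38 in M47 and 6.48 in M49, against 5.83 in M30 and 6.14 in M55. The genotypes were separate, with the Nfkbiz-/- mice only 0.10 apart. For Csf1r the log2 fold change was 0.44 (SE 0.22, 95% interval −0.06 to 0.95, adjusted p = 0.592) and did not pass, though it was 0.60 and called without M55. The ligand Csf1 was called higher, with 8.34 in M47 and 8.63 in M49, against 7.52 in M30 and 8.01 in M55. For Csf1 the log2 fold change of 0.72 (SE 0.25, adjusted p = 0.495) was lost without M49 (0.57) and without M30 (0.47). The other ligand, Il34, differed by 0.03 on the log2 scale and was not called.

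Cx3cr1 encodes the receptor for fractalkine, which patrolling monocytes and many tissue macrophages carry, along with some T and natural killer cells. Cx3cr1 had a log2 signal of 5.12 in M47 and 4.52 in M49, against 4.46 in M30 and 4.22 in M55. M47 stood above the other 3 mice, and M49 barely cleared M30. For Cx3cr1 the log2 fold change was 0.48 (SE 0.26, 95% interval −0.12 to 1.09, adjusted p = 0.625). It was 0.79 and called without M49, and 0.18 without M47. The cluster runs over 166681 bases (chr9:119901616-120068296), against 19614 bases for the gene in RefSeq, and it overlaps 8 RefSeq genes, of which 6 are protein-coding, so that its probes may not all report Cx3cr1. The ligand gene Cx3cl1 had a log2 fold change of 0.31 and was not called, and it was 0.63 and called without M55. Tyrobp, an adaptor of many receptors on myeloid cells, had 0.28 and was not called.

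Adgre1 encodes F4/80, the adhesion receptor by which mouse macrophages are most often stained (chr17:57358686-57483529), and was the only marker with a negative log2 fold change. Its log2 signal was 4.61 in M47 and 4.12 in M49, against 4.55 in M30 and 5.12 in M55. The genotypes overlapped, with M47 just above M30. For Adgre1 the log2 fold change was −0.47 (SE 0.28, 95% interval −1.11 to 0.18, adjusted p = 0.663), and −0.75 and called lower without M30. The means were 4.37 ± 0.35 in Nfkbiz-/- mice and 4.83 ± 0.40 in Nfkbiz+/+ mice (SD, n = 2 each).

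Ms4a7 encodes a 4-span membrane protein of the MS4A family that is found in macrophages of several tissues (chr19:11321039-11336146). On the log2 scale, its signal was 5.66 in M47 and 4.38 in M49, against 4.14 in M30 and 4.61 in M55. Only M47 stood out, and M49 lay among the Nfkbiz+/+ mice. The log2 fold change of 0.64 (SE 0.40, 95% interval −0.30 to 1.59, adjusted p = 0.689) was 1.28 and called without M49, and 0.00 without M47.

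Of 15 further genes of the MS4A family, 3 were called higher and none lower, with a median log2 fold change of 0.12. These 3 lie on the same chromosome as Ms4a7, with 68623 bases between it and Ms4a4c, 133221 bases to Ms4a6c and 180365 bases to Ms4a6b. Ms4a4c had a log2 signal of 5.89 in M47 and 4.62 in M49, against 3.89 in M30 and 3.53 in M55 (log2 fold change 1.54, SE 0.39, adjusted p = 0.468). Ms4a6b had 5.29 and 3.91 in M47 and M49, against 3.26 and 3.03 in M30 and M55 (1.46, SE 0.41, adjusted p = 0.468), with both Nfkbiz+/+ values below the lower quartile. Ms4a6c had 5.01 and 4.51, against 3.24 and 4.02 (1.13, SE 0.31, adjusted p = 0.468). The 3 genes shared with Ms4a7 that M47 was the highest mouse, but unlike it M49 also exceeded both Nfkbiz+/+ mice. Each stayed called without any 1 mouse, though by a small margin for Ms4a6c without M47 and for Ms4a6b without M55. Genes of the family resemble each other in sequence, and cross-hybridisation between its members was not tested.

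Of the 15 partners and ligands of the markers, then, Itgb2 and Csf1 were called higher and none lower, with a median of 0.27. Neither was called by the methods' t-test in either form or at a 2-fold threshold. Of 28 other genes of macrophages, 7 were called higher and none lower, with a median log2 fold change of 0.28. Spi1, which encodes PU.1, had 7.20 and 6.87 in M47 and M49, against 5.35 and 5.73 in M30 and M55. Spi1 had a log2 fold change of 1.49 (SE 0.24, adjusted p = 0.468), and it was called without each mouse and by both forms of the methods' t-test. Siglec1 (CD169, a sialic acid receptor) had 1.02, Laptm5 (a lysosomal membrane protein of blood cells) 1.08 and C1qa (a chain of complement C1q) 0.96, and each stayed called without any 1 mouse. Trem2, a lipid-sensing receptor, had −0.52 (adjusted p = 0.528) and was short of the fold criterion. Without M30 it was called lower (−0.66).

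Of 12 other genes of monocytes, 4 were called higher and none lower, with a median of 0.20. Ccr2, the receptor by which monocytes leave the bone marrow, had 3.30 and 3.02 in M47 and M49, against 2.07 and 2.28 in M30 and M55 (log2 fold change 0.99, SE 0.22, adjusted p = 0.468), but all 4 values were below the lower quartile. Ace, angiotensin-converting enzyme, which endothelium makes as well, had 6.18 and 6.92, against 5.67 and 4.78 (1.33, SE 0.36, adjusted p = 0.468). Both stayed called without any 1 mouse. Ly6c2, the antigen of classical monocytes, had a log2 fold change of 1.18 that was lost without M47 (0.80) and without M30 (0.45). Without M30, Cd36, a fatty acid receptor that fat cells express too, was called lower (−2.62, against −1.15 with all mice).

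**Figure D3:**
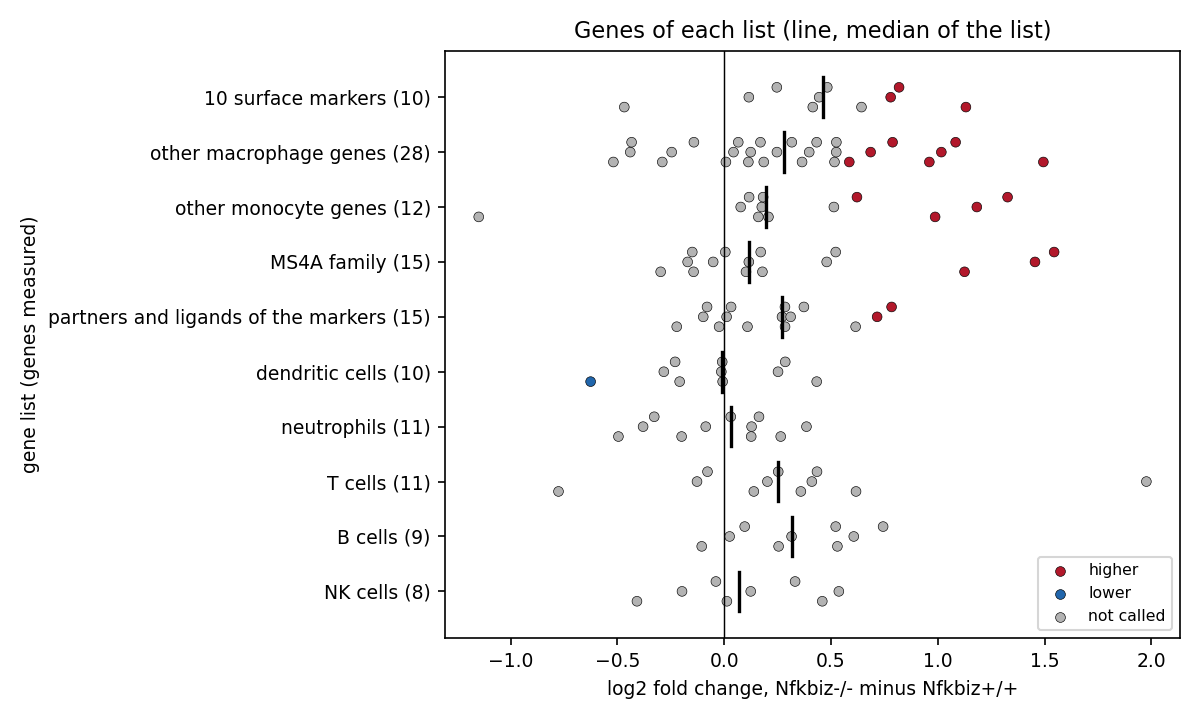
Log2 fold change, Nfkbiz-/- minus Nfkbiz+/+ (horizontal axis), of each gene of 10 lists (vertical axis, with the number of genes measured), coloured by the limma call, with a black line at the median of the list. The 3 called genes among the 10 markers lie beside 7 of 28 other macrophage genes and 4 of 12 other monocyte genes. No gene is called in the lists of neutrophils, T cells, B cells and NK cells. Of all clusters, 2.93% were called higher and 3.69% lower, so lists this short can hold no call. The medians of the T cell (0.25) and B cell (0.32) lists lie near that of the other macrophage genes (0.28).

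Among genes of the other white cells that carry some of the markers, limma called none of 11 neutrophil genes (median 0.03), none of 8 natural killer cell genes (median 0.07) and none of 6 mast cell genes (median 0.01). Of 10 dendritic cell genes (median −0.01), 1 was called lower, Cd24a (−0.62, adjusted p = 0.48), which epithelium expresses too, and which was lost without M47 (−0.50) and without M55 (−0.59). None of 11 T cell genes (median 0.25) and none of 9 B cell genes (median 0.32) was called, and none of 11 genes of blood and lymphatic endothelium (median 0.12). Left-out mice moved these counts. Without M49, 4 B cell and 2 T cell genes were called higher, without M30 2 B cell genes, and without M55 2 T cell genes, while Cd8b1 of the T cell list was called lower without M47 (−1.41). The NK cell list gained 1 higher call without M49 (Prf1) and 1 without M30 (Gzma). Of the neutrophil genes, Mpo and Camp were called lower without M47, and without M55 S100a8 was called lower and Ngp higher. Xcr1 of the dendritic cell list and Cdh5 of endothelium were called higher without M55, and Stab1 of endothelium without M30. With all 4 mice, 2.93% of all clusters were called higher and 3.69% lower, so lists of this length can hold no call. Without M30 or M55 more of all clusters were called in both directions than with all mice, and without M47 or M49 fewer. The differences between these lists were not tested.

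The fat cell genes Fabp4, Car3 and Cfd were called lower, 3 of 7 with a list median of −1.25, as were the muscle genes Myh1, Tnnt3 and Mylpf, 3 of 7 with a median of −0.96. Without M30, 6 fat cell and 5 muscle genes were called lower, without M47 none of either list, and without M49 or M55 2 fat cell genes and no muscle gene. The log2 fold changes moved little without M47, where Fabp4 had −2.36 (−2.38 with all mice) and Mylpf −1.28 (−1.36 with all mice), and shrank without M55, to −0.57 for Fabp4 and −0.42 for Mylpf. Of the 5 red cell genes, 4 were called lower, with a median of −3.09, among them Hba-a1 and Hba-a2, whose values were identical. Of the 11 genes of salivary epithelium, Prpmp5 was called higher (2.44), with 9.54 and 9.22 in M47 and M49, against 8.79 and 5.10 in M30 and M55, and its call was lost without M47 (2.28), without M49 (2.59) and without M55 (0.59). Without M30, 3 genes of this list were called higher and 3 lower.

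The mice did not contribute equally. M47 exceeded M49 in 8 of the 10 markers and was the highest of all mice in 6, while M30 lay below M55 in 7 and was the lowest of all in 6. The widest gap between mice of 1 genotype exceeded the difference of the means in 5 markers, which were Cd68, Adgre1, Cx3cr1, Cd14 and Ms4a7. Averaged over the 10 markers, the deviation from each gene's mean was 0.40 in M47 and 0.06 in M49, against −0.40 in M30 and −0.06 in M55. The T cell list deviated by 0.40 in M47 and −0.09 in M49, against −0.29 in M30 and −0.02 in M55. Cd3e, part of the T cell receptor complex, set much of that list's value, with 10.2 and 7.28 in M47 and M49, against 4.65 and 8.92 in M30 and M55. The other 10 T cell genes deviated by 0.19 in M47 and −0.05 in M49, against −0.01 in M30 and −0.14 in M55, without the low of M30. The B cell list deviated by 0.40 in M47 and −0.07 in M49, against 0.03 in M30 and −0.36 in M55. Their part in the marker values was not tested. The other macrophage genes were more even within a genotype, at 0.18 in M47 and 0.12 in M49, against −0.17 in M30 and −0.13 in M55.

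**Figure D4:**
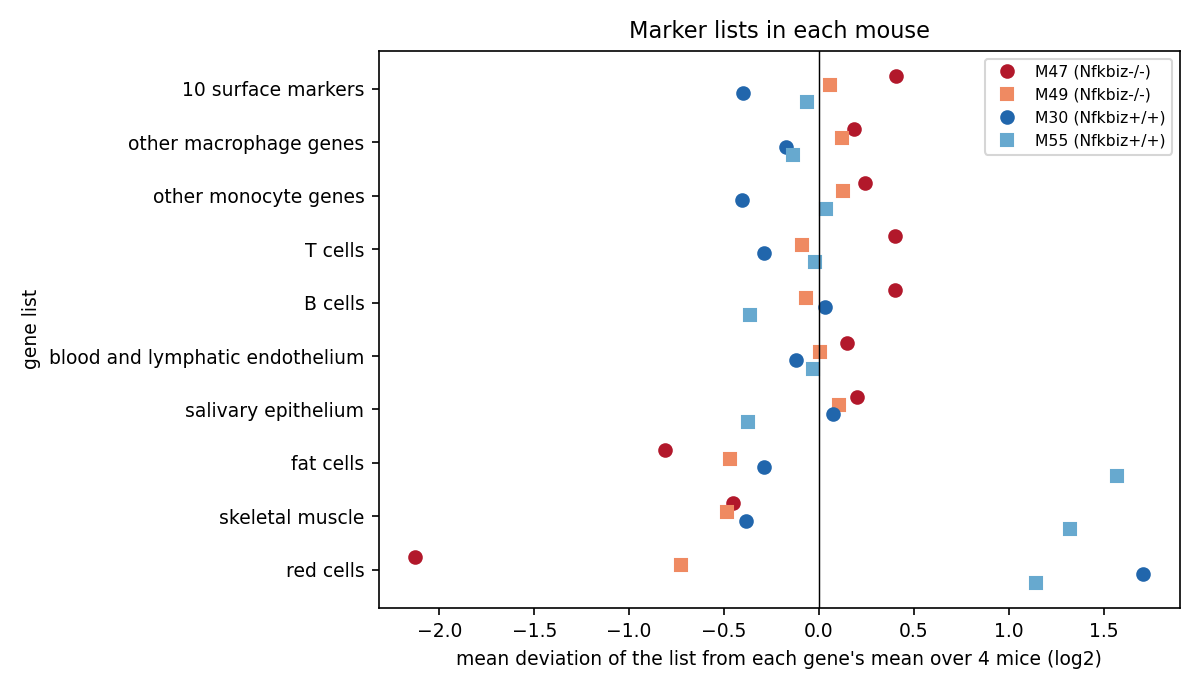
Mean deviation of each list from its genes' means over the 4 mice, on the log2 scale (horizontal axis), for 10 lists (vertical axis), with 1 point per mouse. The 10 markers are highest in M47 (0.40) and lowest in M30 (−0.40), and the fat cell and muscle lists set M55 apart.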

How the data were processed

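The salivary gland RNA of 4 mice was labelled and hybridised to Affymetrix whole-transcript arrays, 1 per mouse. The authors ran robust multi-array average (RMA), which corrects the background, normalizes quantiles and summarises probes, and the deposited values are log2 signals per transcript cluster. The authors' columns of fold change and p-value, and their tables of differentially expressed genes, GO and KEGG terms, were not used. The values in both deposited tables differed at 0 of 22206 clusters. The arrays carry no read depth, and their number limits the precision.

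Genotypes came from the labels. The log2 values, as deposited, were fitted across the whole table with limma 3.58.1 (lmFit, eBayes) under R 4.3.3, and differences are Nfkbiz-/- minus Nfkbiz+/+. The residual degrees of freedom were 2 and the prior ones 5.53, and adjusted p-values are Benjamini-Hochberg values for the 22206 clusters. The study's methods name t-tests without the form of variance, and both forms were run as alternatives. The form with unequal variances called as many genes higher and lower over all clusters as the study reports. The thresholds were a p under 0.05, as in the study's methods, and 1.5-fold. For a gene with more than 1 cluster, that of the highest mean was used. Named genes are the 10 markers, their 15 partners and ligands, and up to 4 called genes of each other list. Some genes of the lists are not reported here. Other genes named, such as Trem2, Cd3e and those called only without a mouse, were chosen after their values were seen. The markers and the 15 lists were chosen with earlier results of these data known. The MS4A list shares Ms4a1 with the B cell list and Ms4a2 with the mast cell list, and the macrophage and endothelium lists share Lyve1. No list was given a test. Where a mouse was left out, the spread came from the other genotype alone, so that the single remaining mouse was taken to vary as much. The array's coordinates overlap the RefSeq position in GRCm38.p6 for all 10 markers. Promoter sequences are RefSeq's.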

Additional observations from a re-analysis of the deposited data

How the results depend on the processing

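The count of markers called higher, 3, was 1 by the t-test with equal variances, 0 by the form with unequal variances and 1 at a 2-fold threshold, and it ranged over 1 to 5 when each mouse was left out (the fewest without M47 and the most without M49, with 4 when M55 and 2 when M30 was left out). It stayed at 3 with median-centred arrays, with quantiles normalized again, with a trend of spread on intensity, with 1 cluster per gene and with the second deposited table, and was 2 with clusters above the median signal, which keep 5 of the markers. The count called lower, 0, became 1 (Adgre1) without M30, a range of 0 to 1. The median log2 fold change of 0.46 lay between 0.26 and 0.62 without a mouse. The sign of Cd14 turned without M30 (−0.52) and without M47 (−0.01), within a range of −0.52 to 0.75. No other marker's sign turned under any alternative, and the cause of these changes was not tested. The markers' adjusted p-values lay between 0.303 and 0.99 under the alternatives other than leaving out a mouse.

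Over all clusters, 651 were called higher and 820 lower. The t-test with equal variances called 227 and 248, the form with unequal variances 107 and 105, and the 2-fold threshold left 130 and 70. Clusters above the median signal gave 383 and 518. Without 1 mouse, 514 to 1104 were called higher and 537 to 1586 lower, the most without M30. The other macrophage genes called higher, 7, were 2 and 1 by the t-tests and 5 to 9 without a mouse, and the other monocyte genes, 4, were 1 and 1, and 2 to 4. Called lower, these lists had 0, and 2 and 1 genes without M30. The partners and ligands, 2, were 0 by both t-tests and at 2-fold, and 1 to 3 without a mouse. The MS4A genes, 3, were 0 by both t-tests and 3 to 4 without a mouse. No paired analysis was made, because the labels do not pair mice of different genotypes.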
